A study of Mus musculus with 6 samples.

Results

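The 10 genes described here encode proteins that keep maternal mRNA stored and untranslated in the growing oocyte, or that bring it back into translation when meiosis resumes. They were chosen by name: Ybx2, Zar1, Lsm14b, Patl2, Eif4e1b and Eif4enif1 as masking and storage factors, Cpeb1, Dazl and Pabpc1l as activators, and Marf1, a ribonuclease, apart from both. Every probe set whose array annotation is exactly 1 symbol, one of these, was used, which gave 11 probe sets for 9 genes, out of 21646 tested probe sets and 11429 genes. Eif4e1b, the oocyte form of the cap-binding protein, was not analysed here. Dazl and Marf1 had 2 probe sets each, and the brighter one represents the gene unless said otherwise.

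Expression was measured on short-oligonucleotide arrays in mouse oocytes at 2 stages, MII and GV, from 3 biological replicates a stage, each a pool of 300 oocytes hybridised to its own array. Mature oocytes arrested in metaphase of meiosis II (MII) were denuded from ovulated complexes 14 h after injection of 5 IU of hCG, a hormone that triggers maturation and ovulation, into mice aged 22 to 24 days primed with 5 IU of eCG, which drives follicle growth. Fully grown immature oocytes with an intact nucleus, the germinal vesicle (GV) stage, came from large antral follicles of mice of the same age 44 to 46 h after 5 IU of eCG alone, and were held in 5 µM milrinone, which blocks the oocyte phosphodiesterase and so prevents maturation. No strain, allele or transgene is given in the labels. RNA (10 ng a sample) was amplified in repeated rounds with a primer mix in place of oligo(dT). The part of poly(A) tail length in the results was not tested. The values are log2 expression values between 1.85 and 13.3, and their precision is limited by the small number of arrays.

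A fully grown oocyte makes almost no new mRNA and lives on transcripts stored during growth. Stored mRNAs carry short poly(A) tails and sit in ribonucleoprotein particles with Y-box proteins, LSM14, PAT1 and 4E-T proteins, which keep the cap and the tail away from the translation machinery. When meiosis resumes, CPEB1 and DAZL bound to 3′ untranslated regions promote polyadenylation and translation of chosen mRNAs, poly(A)-binding proteins occupy the new tails, and many other stored mRNAs are degraded. CPEB1 also represses its targets before maturation, so its place among the activators is a convention.

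Array medians over the tested probe sets were 5.47 to 5.49 in MII and 6.10 to 6.12 in GV, and the median difference over all genes, MII minus GV, was -0.20. Values on the arrays correlated at 0.988 to 0.991 within a stage and at 0.885 to 0.906 between stages, across probe sets that are not independent replicates. Of the 14 measured oocyte markers 12 to 13 lay above the array's own median in MII and 14 in GV. Of 18 granulosa and cumulus markers 11 were measured, of which 3 lay above it on each MII array and 2 to 4 in GV. Their summed log2 value was 46.9 to 48.3 in MII and 52.0 to 52.7 in GV, and 0 were listed at 0. At an adjusted p under 0.05 (limma) 5 of the 11 were called lower, where 37.8% of all genes were. Their part in the results was not tested. Of the 14 oocyte markers 8 were called lower and 2 higher, against 37.8% and 10.5% of all genes, with a median difference of -1.11. With array medians made equal 7 were lower and 4 higher, where 2569 and 5964 of all 11429 genes were. The Gapdh control probe sets at the 3′ end exceeded those at the 5′ end by 1.88 to 2.48 in MII and by 2.61 to 3.00 in GV, and the same quantity for Actb was 0.12 to 0.87 in MII and 0.26 to 0.98 in GV. The part of these end differences in the results was not tested either. In pooled oocytes, loss of a transcript from some cells and less of it in every cell cannot be told apart.

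The oocyte mRNA storage and translation regulators divided into 3 that fell steeply, Cpeb1, Patl2 and Pabpc1l, and 6 with smaller differences. At an adjusted p under 0.05 (limma, Benjamini-Hochberg over all probe sets), 5 of the 9 genes were lower in MII, where 37.8% of all genes were, and 1 was higher, where 10.5% of all genes were. The falls comprised 3 of 5 measured masking factors (Patl2, Ybx2 and Eif4enif1) and 2 of 3 activators (Cpeb1 and Pabpc1l). Zar1, Lsm14b and Dazl were not called, and Marf1 was the gene called higher, which is close to the share of all genes. The 3 MII and 3 GV values did not overlap for 6 of the 9 genes, against 57.9% of all genes. By probe set, 5 of 11 were called lower (34.1% of all probe sets), 1 higher (10.9%) and 7 had no overlap (54% of all). A difference of -1 or below was found for 3 of the 9 genes and for 23.1% of all genes. The median difference was -0.55 over the masking factors on the deposited scale, and 0.08 with array medians made equal. Over the activators it was -1.67, and negative under all 5 scales between arrays that are described at the end (-2.54 to -1.04).

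**Figure D1:**
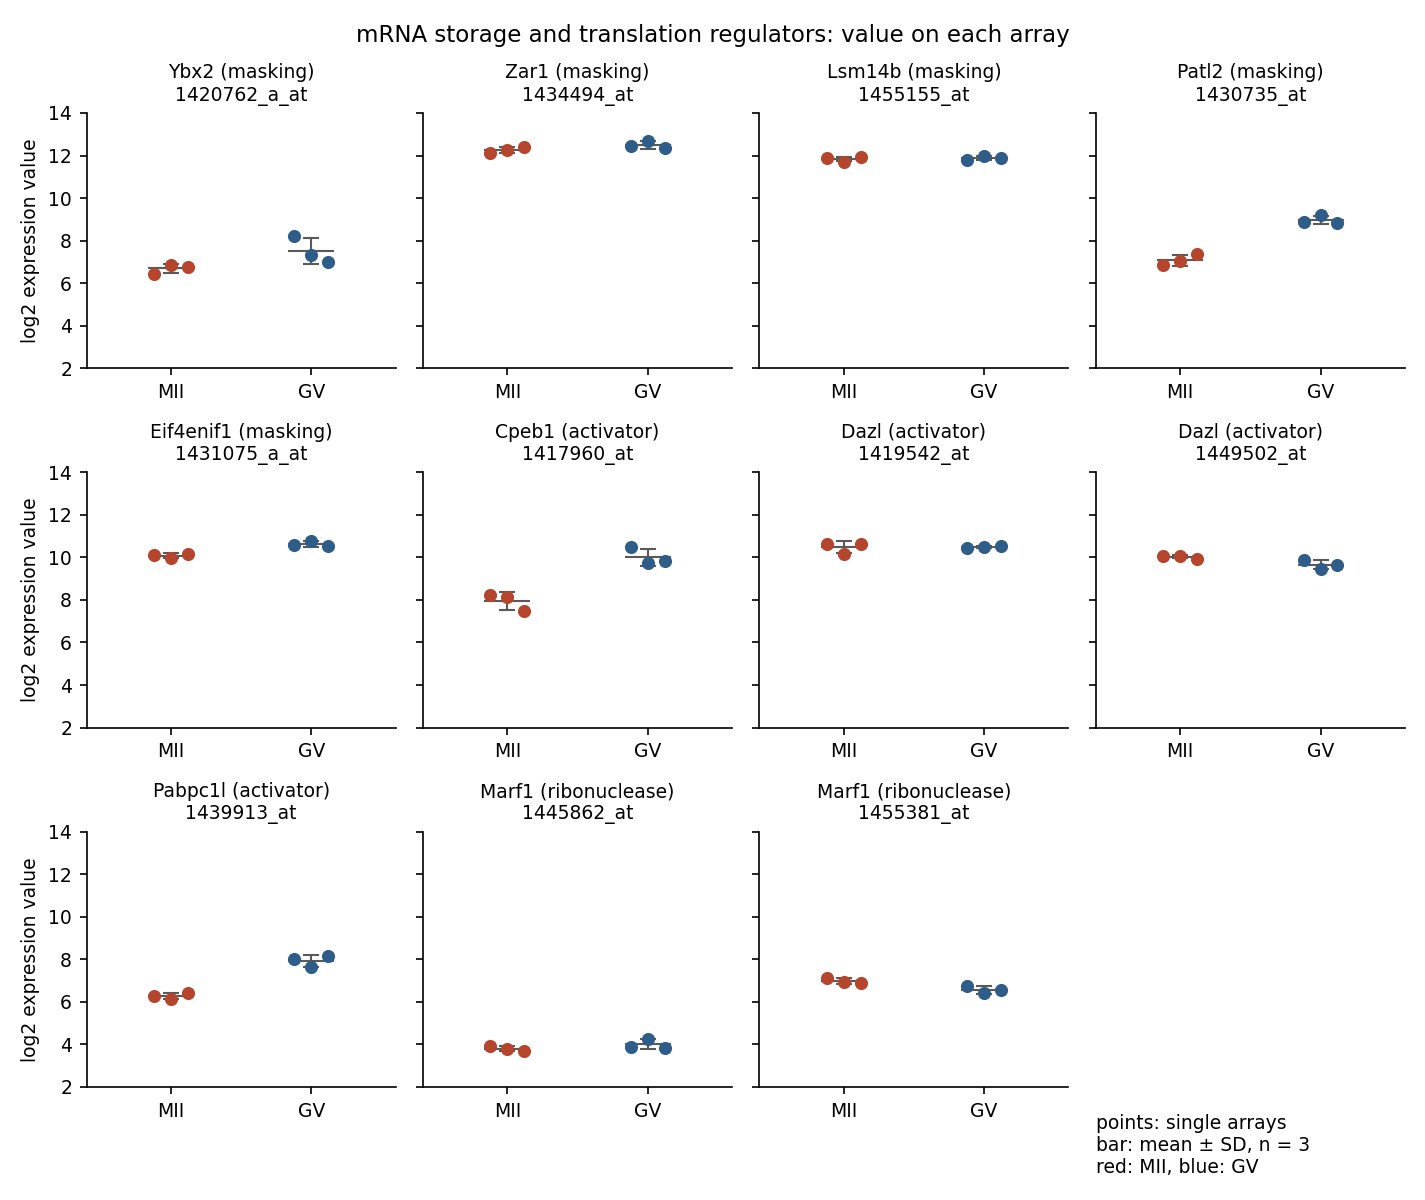
Log2 expression value of each of the 11 probe sets on each array (vertical axis), with the 3 MII arrays at the left and the 3 GV arrays at the right of each panel; bars are the mean ± SD of 3 arrays. Cpeb1, Patl2 and Pabpc1l lie lower in MII, with differences of -1.67 to -2.07, while Zar1 and Lsm14b stay near 12 in both stages.

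Patl2 (probe set 1430735_at), an oocyte member of the PAT1 family of translational repressors, fell the most among the masking factors. It was at 6.86, 7.02 and 7.37 on the MII arrays, against 8.87, 9.18 and 8.85 on the GV arrays. All MII arrays were well below all GV arrays, with means of 7.08 ± 0.26 in MII and 8.97 ± 0.19 in GV (SD, n = 3). The difference was -1.88 ± 0.17 (SE; adjusted p = 8.72e-06, limma, Benjamini-Hochberg), a level 3.69-fold lower in MII with a 95% interval of 2.83 to 4.81. A lower difference was found for 10.8% of genes.

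Ybx2 (MSY2, probe set 1420762_a_at) is the germ cell Y-box protein that binds and stabilises maternal mRNA. It was at 6.44, 6.86 and 6.76 in MII, against 8.20, 7.33 and 7.01 in GV. The stages did not overlap, but GV replicate 1 stood well above the other GV arrays, and the lowest GV array lay close to the highest MII array. The fall of 0.82 ± 0.27 (SE) passed the threshold (adjusted p = 0.0315, limma, Benjamini-Hochberg), a 1.77-fold lower level with an interval of 1.16 to 2.70. Without GV replicate 1 the difference was -0.48 and no longer called, and it was also not called without MII replicate 1 (-0.70) or 3 (-0.86). With array medians made equal it was -0.20 and after quantile normalization -0.17, and neither was called, nor was the fall without variance moderation (adjusted p = 0.174, limma).

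Eif4enif1 (probe set 1431075_a_at) encodes 4E-T, which binds eIF4E and keeps it out of the initiation complex. Its values were 10.13, 9.95 and 10.17 in MII, against 10.58, 10.78 and 10.55 in GV, with no overlap and with little spread in either stage. It fell by 0.55 ± 0.14 (SE; adjusted p = 0.0091, limma, Benjamini-Hochberg), a 1.46-fold lower level with an interval of 1.18 to 1.81. With array medians made equal the difference was 0.08, and after quantile normalization -0.24, and neither was called.

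Zar1 (probe set 1434494_at), a zinc finger RNA-binding protein that holds maternal transcripts in storage, was at 12.13, 12.27 and 12.40 in MII, against 12.44, 12.68 and 12.35 in GV. The stages overlapped, and the values lay near the top of the arrays' range (13.3). The difference was -0.22 ± 0.15 (SE), with a 95% interval of -0.55 to 0.11 (adjusted p = 0.255, limma, Benjamini-Hochberg). Lsm14b (probe set 1455155_at), a component of the storage particles needed for meiotic progression in mouse oocytes, was at 11.88, 11.71 and 11.91 in MII, against 11.79, 11.97 and 11.90 in GV. Its stages overlapped, and its difference was -0.05 ± 0.13 (SE), with an interval of -0.35 to 0.25 (adjusted p = 0.791, limma, Benjamini-Hochberg). For both genes the sign turned with the scale: with array medians made equal they were called higher, at 0.40 for Zar1 and 0.57 for Lsm14b, and with poly-A controls made equal they were called lower, at -1.10 and -0.92.

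Among the activators, Cpeb1 had the largest fall. The protein binds the cytoplasmic polyadenylation element and is itself degraded during maturation. The transcript (probe set 1417960_at) was at 8.25, 8.14 and 7.46 in MII, against 10.47, 9.73 and 9.85 in GV. Every MII array was more than 1 log2 unit below every GV array, although replicates spread more than for most members (MII 7.95 ± 0.42, GV 10.02 ± 0.40; SD, n = 3). The difference was -2.07 ± 0.25 (SE; adjusted p = 6.69e-05, limma, Benjamini-Hochberg), a 4.20-fold lower level with an interval of 2.85 to 6.16, and 9.18% of genes had a lower difference.

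Pabpc1l (probe set 1439913_at), the embryonic poly(A)-binding protein that prevails in oocytes, was at 6.27, 6.12 and 6.42 in MII, against 8.02, 7.63 and 8.18 in GV. The stages were clearly apart. It fell by 1.67 ± 0.17 (SE; adjusted p = 2.15e-05, limma, Benjamini-Hochberg), a 3.18-fold lower level with an interval of 2.44 to 4.16. The MII values lay above the array medians (5.49 or less), so the fall did not end in the dimmer part of the arrays.

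Dazl, a germ cell RNA-binding protein that recruits maternal mRNAs to polysomes, was measured by probe sets 1419542_at and 1449502_at. The brighter, 1419542_at, read 10.63, 10.16 and 10.65 in MII, against 10.47, 10.50 and 10.55 in GV, so that the stages overlapped. Its difference was -0.03 ± 0.16 (SE; interval -0.39 to 0.33; adjusted p = 0.905, limma, Benjamini-Hochberg). Probe set 1449502_at read 10.08, 10.08 and 9.94 in MII, against 9.86, 9.48 and 9.65 in GV. These did not overlap, but the difference of 0.37 ± 0.15 missed the threshold (adjusted p = 0.0645, limma, Benjamini-Hochberg). It was called higher without GV replicate 1 (0.47), after quantile normalization (0.72), with array medians made equal (0.99) and with a variance trend (0.37, adjusted p = 0.0467, limma), and lower when the poly-A controls were equalised (-0.50).

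Marf1, a ribonuclease needed for meiosis and for restraint of retrotransposons in the mouse oocyte, was at 7.13, 6.93 and 6.90 in MII, against 6.76, 6.41 and 6.54 in GV by probe set 1455381_at. The stages did not overlap, and it rose by 0.42 ± 0.15 (SE; adjusted p = 0.0434, limma, Benjamini-Hochberg), 1.33-fold with an interval of 1.06 to 1.68. This call was lost in 5 of the 6 fits that left out 1 array (0.34 to 0.46), and held at 0.51 without GV replicate 1. The difference was 0.01 with hybridization controls made equal and -0.46 with poly-A controls made equal. The other probe set, 1445862_at, was dim at 3.71 to 3.93 in MII and 3.84 to 4.27 in GV, and was not called.

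The promoter sequences of 3 genes that fell, and of Zar1, are shown because those 3 fell together in MII, while Zar1 serves as a bright gene without a call, and all 4 transcripts are made during oocyte growth. Each is the stretch of 120 bases before the gene's start on the gene's strand, from RefSeq on GRCm38.p6, 5′ to 3′, with E-boxes (CANNTG, the motif that oocyte helix-loop-helix factors such as FIGLA recognise) in capitals.
Cpeb1, chr7:81454759-81454878, minus strand: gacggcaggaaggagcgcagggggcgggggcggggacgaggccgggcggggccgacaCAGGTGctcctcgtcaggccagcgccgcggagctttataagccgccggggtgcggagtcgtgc
Patl2, chr2:122186190-122186309, minus strand: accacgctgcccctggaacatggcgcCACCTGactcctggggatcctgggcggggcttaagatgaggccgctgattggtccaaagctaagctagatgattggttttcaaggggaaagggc
Pabpc1l, chr2:164025104-164025223, plus strand: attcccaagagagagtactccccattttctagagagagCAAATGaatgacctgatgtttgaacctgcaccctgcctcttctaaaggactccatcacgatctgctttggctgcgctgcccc
Zar1, chr5:72581085-72581204, minus strand: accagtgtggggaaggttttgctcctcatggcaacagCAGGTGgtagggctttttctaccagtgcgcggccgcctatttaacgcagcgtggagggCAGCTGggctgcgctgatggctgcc
All 9 measured genes matched the promoter table, with 13 windows among them. Within 250 bases upstream, 8 of the 13 windows held an E-box, 1 for each gene but Marf1, where 66.2% of 32851 windows of that length did. Within 120 bases, the length shown, 40.2% of all windows held one. The E-boxes of Lsm14b, Dazl and Ybx2 began farther upstream, at -154, -192 and -237 from the gene's start. That of Eif4enif1 began at -103, in the only window of that gene that held one. On either strand, TAATTG or TAATTA, which the oocyte homeobox factor NOBOX recognises, was found for 0 of the 9 genes and in 11.3% of all windows. TATAAA on either strand was found for Cpeb1 alone among the 9 genes and in 12.4% of all windows. Windows ranged from 46% GC for Pabpc1l to 82.8% for 1 of the Eif4enif1 windows, against a median of 52.4% over all windows. Genes that fell and genes that were not called both held E-boxes, and a match describes letters, not a bound site.

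Masking factors were set against activators within each array, so that a constant shift of a whole array cancels. A difference between probe sets has no meaning as a level, and only its change between stages is read. The mean of the 5 masking factors minus the mean of the 3 activators was 1.11, 1.42 and 1.55 on the MII arrays, against 0.72, 1.10 and 0.61 on the GV arrays. The stages just failed to overlap, and the MII mean exceeded the GV mean by 0.55. After quantile normalization, which is not a constant shift, the excess was 0.43. With medians in place of means, a summary chosen after the values were seen, the excess was 1.52. On the deposited scale the masking mean differed by -0.71 and the activator mean by -1.26.

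This contrast rested on few genes. Without Cpeb1 it was 0.14, without Pabpc1l 0.34 and without Dazl 1.16, and in 5 of the 8 cases with 1 gene left out the MII and GV values overlapped. The members were chosen by name and are not replicates, so no p is given for it. Each role held both kinds of gene: the change of Cpeb1 relative to Dazl was -2.04 (-2.38, -2.03 and -3.19 in MII, against 0.01, -0.78 and -0.70 in GV). Among masking factors, the change of Patl2 relative to Lsm14b was -1.83, and that of Zar1 relative to Lsm14b was -0.17 with overlapping stages. Patl2 relative to Cpeb1 changed by 0.19, again with overlap.

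**Figure D2:**
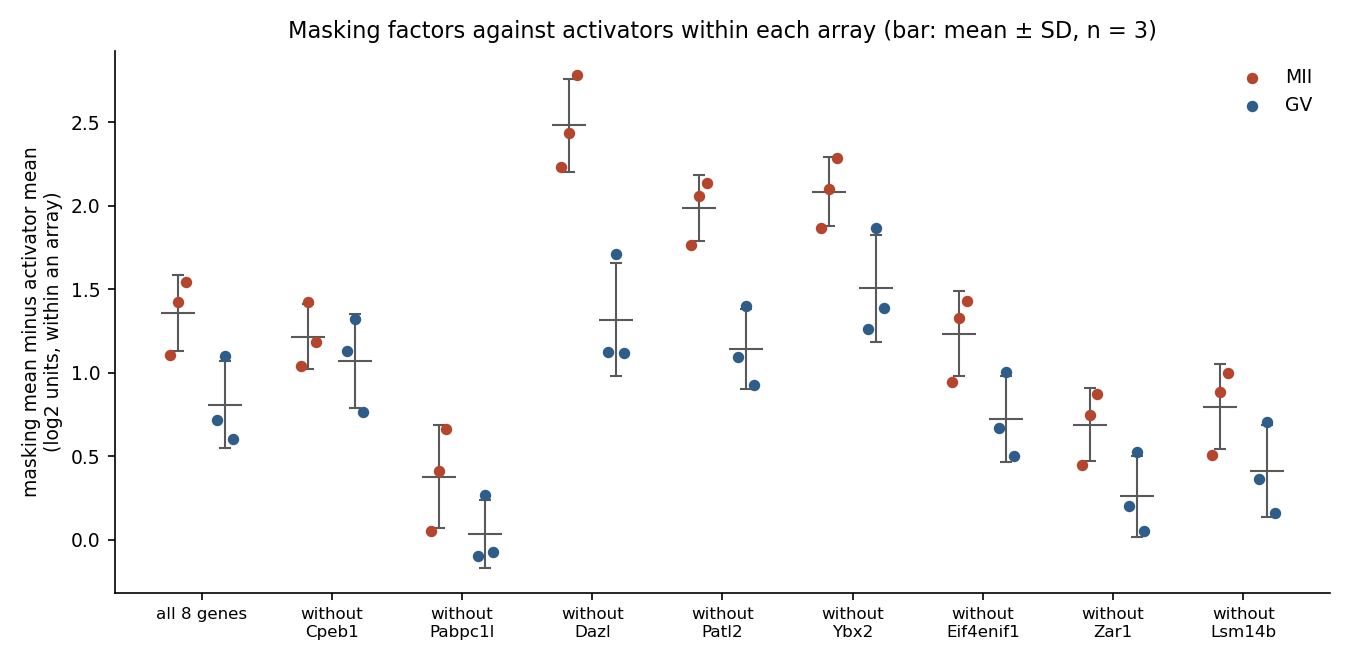
Mean of the masking factors minus mean of the activators within each array, in log2 units (vertical axis), for all 8 genes and with each gene left out in turn; MII points stand left of GV points and bars are the mean ± SD of 3 arrays. The excess of MII over GV is 0.55 with all genes, 0.14 without Cpeb1 and 1.16 without Dazl.

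Relatives of the members were measured beside them. Of 16 relatives listed, 14 were measured, of which 2 were called higher and 5 lower (limma, Benjamini-Hochberg adjusted p under 0.05). Over all genes 10.5% were higher and 37.8% lower, which is close to both counts. The median difference was -0.21 against -0.20 over all genes. With array medians made equal 7 were called higher and 2 lower, where 5964 and 2569 of all 11429 genes were. The median was then 0.41 against 0.42 over all genes. Poly(A)-binding proteins went both ways: beside the fall of Pabpc1l, Pabpn1l, the oocyte form of the nuclear poly(A)-binding protein, was at -0.78 ± 0.15 and the general cytoplasmic Pabpc1 at -0.80 ± 0.26 (SE), both called lower, and neither was called with array medians made equal (-0.16 and -0.17). Pabpc4 rose to 11.81 ± 0.08 in MII, against 10.55 ± 0.01 in GV (SD, n = 3), by 1.25 ± 0.13 (SE; 2.38-fold; adjusted p = 2.05e-05, limma, Benjamini-Hochberg). Its second probe set rose by 1.31. The nuclear Pabpn1 was at 0.70 ± 0.21 (SE) and called higher, with another probe set called at 1.12 and 2 others, at -0.02 and 0.18, not called. With hybridization controls made equal the brighter Pabpc4 probe set (0.85) and Pabpn1 (0.30) were no longer called, while the second Pabpc4 probe set was (0.90). With poly-A controls made equal neither Pabpc4 probe set was called (0.38 and 0.43), and Pabpn1 was at -0.17.

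In the Y-box family, both Ybx2 and Ybx3 were called lower. Ybx3 was at 8.95 ± 0.07 in MII, against 11.77 ± 0.02 in GV (SD, n = 3), a fall of 2.81 ± 0.13 (SE; adjusted p = 8.08e-08, limma, Benjamini-Hochberg), and its other probe set fell by 2.72. Ybx1, the widely expressed member, was at -0.42 ± 0.18 and not called. Patl1, the somatic counterpart of Patl2, was at 0.31 ± 0.13 and not called (called higher, at 0.94, with array medians made equal, and called lower, at -0.56, with poly-A controls made equal). Lsm14a was at 0.22 ± 0.13 and not called, and a dimmer probe set of it was called higher at 0.47, with the third at 0.09.

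Among CPEB proteins, Cpeb3 was called lower at -0.57 ± 0.15 (SE), although a dimmer probe set was called higher at 0.57. With array medians made equal it was at 0.05. Cpeb4, which takes over from CPEB1 in frog oocyte maturation, was at -0.41 ± 0.16 and not called. Its dimmer probe sets were at 0.22 and 0.11, not called either. The brightest Cpeb2 probe set was dim (3.59 in MII and 3.61 in GV) and its difference was -0.02, while the dimmer one was called higher at 0.39. In the cap-binding eIF4E family, Eif4e2, a translational repressor, was at -1.73 ± 0.15 and called lower, with another probe set at -3.73 and 2 others near 0. The brightest Eif4e probe set was at 0.08 and not called, while 2 dimmer ones were called lower, at -1.75 and -0.46. Eif4e3 was at 0.17 ± 0.15 and not called.

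**Figure D3:**
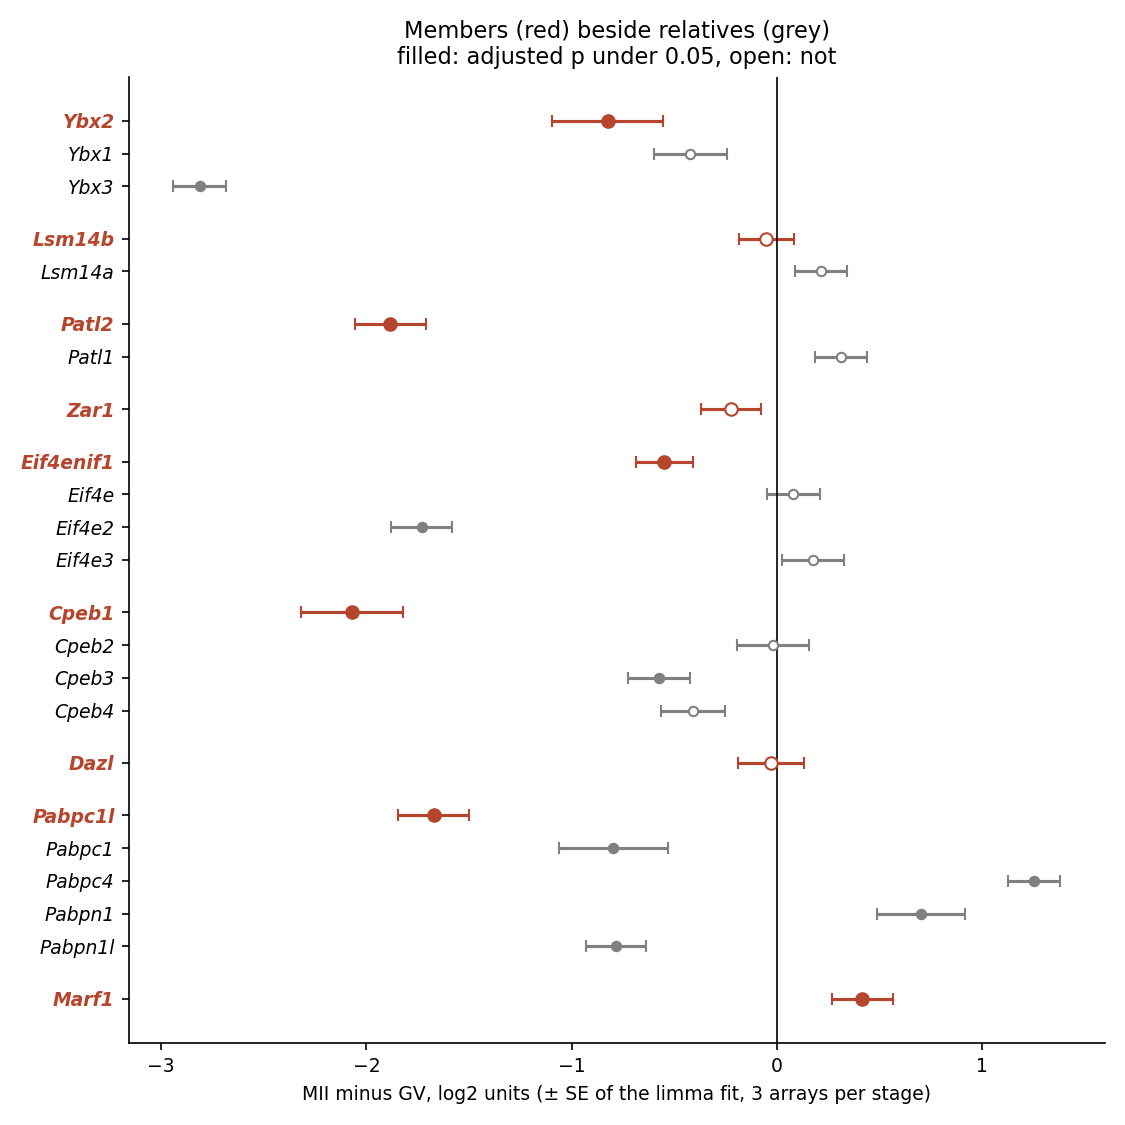
Difference MII minus GV in log2 units (horizontal axis) for the brightest probe set of each member (red) and of listed relatives (grey). The eIF4E family is placed beside Eif4enif1. Bars are the SE of the fit over 3 arrays per stage, and filled points have an adjusted p under 0.05. Pabpc1l (-1.67) and Pabpc4 (1.25) lie on opposite sides of 0, as do Patl2 (-1.88) and Patl1 (0.31, open), on the deposited scale; with poly-A controls made equal Patl1 was at -0.56.

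Other factors of mRNA storage and repression were called lower for 9 and higher for 2 of 31 measured genes, against 37.8% lower and 10.5% higher over all genes, so neither count stood above the general share. The median difference was -0.16, against -0.20 over all genes (0.47 and 0.42 with array medians made equal). The steepest fall was that of Paip2, an inhibitor of poly(A)-binding protein, which fell by 4.65 ± 0.18 (SE), to 6.77 ± 0.18 in MII, against 11.41 ± 0.29 in GV (SD, n = 3). Fxr2, a relative of the fragile X protein, was at -1.90 and Stau2, a double-stranded RNA-binding protein, at -1.85 (its other probe set at 0.32, not called). The rises were those of Nanos1 (0.66, with its other probe set at 0.30, not called) and the granule protein gene G3bp2 (0.45), and another probe set of G3bp2 was called lower at -1.10. These counts turn with the scale, to 17 higher and 4 lower with array medians made equal. On that scale 5964 of all 11429 genes were higher and 2569 lower. With poly-A controls made equal 27 were lower, where 9883 of all 11429 genes were.

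Polyadenylation and activation factors were called lower for 13 and higher for 4 of 29 measured genes, against 37.8% lower and 10.5% higher over all genes, which is close to both counts. The median difference was -0.30, against -0.20 over all genes (0.33 and 0.42 with array medians made equal). The falls included the cleavage and polyadenylation factor genes Wdr33 (-2.61) and Cpsf4 (-2.48) and the poly(A) polymerase gene Papola (-1.85), while 5 other Wdr33 probe sets were not called and 2 of 4 other Papola probe sets were called lower. Besides Pabpc4, the rises included Tent2 (0.49), the cytoplasmic poly(A) polymerase that works with CPEB1 in frog oocytes, and Aurka (0.47), the kinase that phosphorylates CPEB1 there. With hybridization controls made equal neither was called (0.08 and 0.06), and with poly-A controls made equal they were at -0.38 and -0.41. The list held 13 higher and 7 lower genes with array medians made equal, where 5964 and 2569 of all 11429 genes were.

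Transcripts listed as CPEB1 or DAZL targets, from general knowledge, were called lower for 7 and higher for 6 of 29 measured genes, against 37.8% lower and 10.5% higher over all genes, and 16 were not called. The median difference was -0.03, against -0.20 over all genes (0.60 and 0.42 with array medians made equal). Mos, the kinase upstream of cytostatic arrest, was at -1.30 ± 0.16 (SE) and Plat, tissue plasminogen activator, at -0.98 ± 0.14, and both stayed called lower under all 5 scales. The other falls named by the rule were those of Nsf (-2.68) and the dim Ccne2 (-1.69), and 2 other probe sets of Nsf were called higher, at 0.96 and 0.92. The largest rises were those of Racgap1 (0.83, with another probe set called lower at -1.84), Cks2 (0.82) and Sycp3 (0.54). With array medians made equal 22 of the 29 were called higher, where 5964 of all 11429 genes were. With poly-A controls made equal 22 were called lower, where 9883 of all 11429 genes were. Ybx2 and Dazl stand on this list as well, and several relatives of the members, such as Ybx1, Patl1, Lsm14a, Pabpc1, Pabpc4 and the other Cpeb genes, are also counted in the storage or polyadenylation lists.

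For each member, the gene whose 6 array values, centred on their mean, lay nearest was found among 6401 genes of other names with a mean above the median. The root mean square distance over the 6 arrays was 0.09 for Snhg1 beside Cpeb1, 0.075 for Babam1 beside Patl2 and 0.12 for Wdr75 beside Pabpc1l. It was 0.15 for Tmem108 beside Ybx2, 0.039 for Sar1a beside Eif4enif1, 0.029 for Sbds beside Zar1 and 0.026 for St6galnac3 beside Lsm14b. For Dazl it was 0.056 (Lrba), and for Marf1 0.053 (Smg1). Snhg1 differed by -2.12, Babam1 by -1.83 and Wdr75 by -1.67, the likeness being what chose them.

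The direction of 5 members, Zar1, Lsm14b, Eif4enif1, Dazl and Marf1, depended on the scale between arrays, and that of Cpeb1, Patl2, Pabpc1l and Ybx2 did not. Over the 5 scales, Cpeb1 ranged from -2.94 to -1.44, Patl2 from -2.76 to -1.26 and Pabpc1l from -2.54 to -1.04, each called lower throughout. Making array medians equal added 0.62 to the median difference of all probe sets, quantile normalization added 0.34, and making the hybridization or poly-A controls equal shifted it by -0.40 or -0.87. Among all genes called, 21.8% were higher on the deposited scale, 69.9% with array medians equal, 58.5% after quantile normalization, 1.18% with hybridization controls equal and 0.313% with poly-A controls equal. Relative to those shifts, Ybx2 and Eif4enif1 were not called with array medians equal or after quantile normalization, and Zar1, Lsm14b and Dazl moved between higher and lower. Ybx2 lay between -1.70 and -0.17. Both control scales have limits. The poly-A controls averaged 4.28 to 4.71 on the GV arrays and 5.14 to 5.43 on the MII arrays, below the median of each array. The hybridization controls averaged 8.94 to 9.82 in GV and 9.42 to 9.86 in MII, so that equalising them added spread within a stage. The fitted SE was then the same for every member, 0.37, against 0.13 to 0.27 on the deposited scale. A member's own spread therefore did not enter its call there. With poly-A controls made equal the SE was nearly the same for all members, 0.24 to 0.25, so those calls carry little of a member's own spread.

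**Figure D4:**
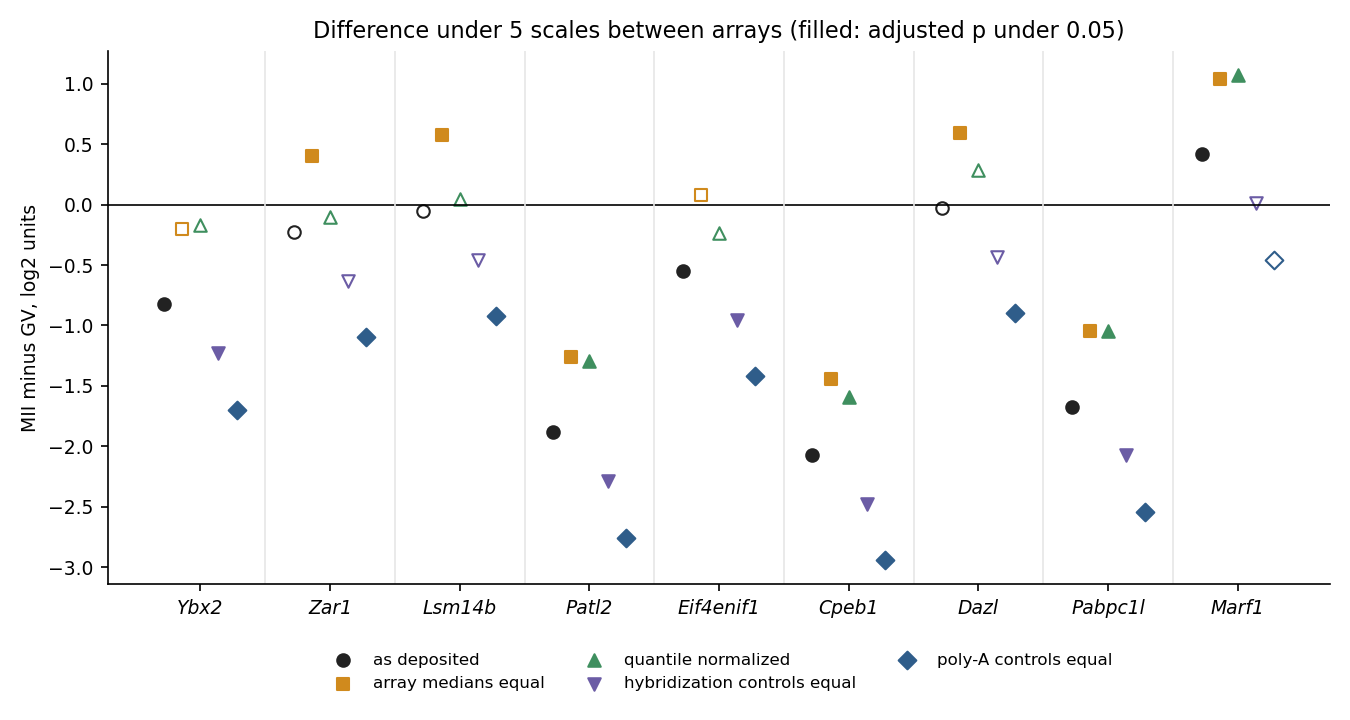
Difference MII minus GV in log2 units (vertical axis) of each of the 9 genes under 5 scales between arrays, one symbol per scale; filled symbols have an adjusted p under 0.05. Cpeb1, Patl2 and Pabpc1l are below -1 under all 5 scales, while Zar1, Lsm14b and Dazl lie on both sides of 0.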

How the data were processed

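The deposited table holds log2 values of 21702 probe sets; RMA and the R package affy are named, without versions, per the submitters' processing notes. No source used here states the background settings, the filter on probe sets or a build. Each array holds 7077 distinct values, and the lowest and highest values are the same on every array. Without 56 control features there were 21646 probe sets: 19078 with 1 gene symbol, 550 with several and 2018 with none. The brightest probe set on average, among those with 1 symbol, stood for its gene.

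The stages were tested 2-sided with lmFit and eBayes (limma 3.58.1, R 4.3.3) and no covariate. The fit on the deposited scale had 9.78 total degrees of freedom. All p-values were adjusted by the Benjamini-Hochberg method across the whole table of tested probe sets. Fits were tested on simulated data of 21646 probe sets, of which 100 were changed by 1 log2 unit and 100 by 2. The test found 68% and 94% of these, with 0 wrong signs, and 4.7% of its calls were false. Many more probe sets were called in the measured data (2358 higher and 7376 lower), so these shares do not give the sensitivity there. Alternatives were 4 other scales between arrays, leaving out each array, a replicate block, no moderation, a variance trend, a filter on dim probe sets and other choices of probe set.

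The members, lists and alternatives were chosen with earlier results of these data known. Named were all members and relatives, up to 3 called rises and 3 called falls of each other list, Mos, Plat and Ccnb1 (not analysed here), and the gene nearest each member. Of the oocyte markers the rule named Bmp15 (0.69), H1f8 (0.66), Zp2 (-4.26), Zp3 (-2.76) and Padi6 (-2.24), and of the granulosa markers Inhba (-1.40), Inhbb (-1.02) and Nr5a2 (-0.85), all called. Dimmer Bmp15 probe sets, at -0.33 and -0.22, were not called. Another Nr5a2 probe set was called lower at -0.79, and the third, at -0.17, was not.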

Additional observations from a re-analysis of the deposited data

How the results depend on the processing

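The falls of Cpeb1, Patl2 and Pabpc1l kept their direction and their call in all 16 alternatives run for each. Some of these could not move the differences: changes of the test, the filter and the choices of probe set. Each of the genes has 1 probe set, of the type _at, so leaving out the other types could not move the call either. The excess of masking factors over activators is taken within arrays, so 6 alternatives (whole-array shifts, changes of the test, the filter) could not move it; the other 10 gave 0.43 to 0.70. With array medians made equal, 4 member genes (6 probe sets) were called higher and 3 (3) lower, and the sign turned for Zar1 (0.40), Lsm14b (0.57), Eif4enif1 (0.075), Dazl (0.60) and Marf1 probe set 1445862_at (0.42). After quantile normalization 3 genes (3 probe sets) were called lower and 2 probe sets higher, and the sign turned for Lsm14b (0.049), Dazl (0.28) and Marf1 probe set 1445862_at (0.081). With hybridization controls made equal 0 genes and 0 probe sets were called higher by limma (0 unadjusted), and Dazl probe set 1449502_at was at -0.034. With poly-A controls made equal 8 genes (10 probe sets) were called lower and 0 (0) higher by limma (0 unadjusted), with Marf1 at -0.46 and Dazl probe set 1449502_at at -0.50. These scales differ by construction in what they hold equal. Leaving out 1 array gave 0 to 1 genes (0 to 2 probe sets) called higher (limma; 0 to 1 and 0 to 2 unadjusted) and 4 to 5 genes (4 to 5 probe sets) called lower, with Lsm14b at -0.10 to 0.011 and Dazl at -0.11 to 0.13, the sign of both turning without MII replicate 2. Marf1, the only gene called higher, had no call by limma with no moderation, with a variance trend or with the replicate block, so that 0 genes were called higher (1 unadjusted in each); 0 probe sets were called higher with no moderation or the block (2 unadjusted in each). With the mean over all probe sets of a gene 0 genes were called higher by limma (0 unadjusted) and Dazl was at 0.17. Without probe sets of the types _s_at, _x_at and _a_at 3 genes were called lower, since this removes Ybx2 and Eif4enif1. The labels number replicates 2 and 3 of each stage but say nothing of shared animals, and deviations of same-numbered arrays correlated at 0.029 and 0.027. The fit with the replicate block over these 4 arrays called 4 member genes lower and left Ybx2 at -0.36, not called. Leaving out 1 array, 848 to 1069 of all 11429 genes were called higher and 3901 to 4093 lower. With the replicate block 1108 and 3971 were, and with a variance trend 1232 and 4301. With the mean over all probe sets of a gene the counts were 1147 and 4573. Without the types _s_at, _x_at and _a_at they were 1023 and 3500 of 9766 genes. Over all genes, 1204 were called higher and 4315 lower; the counts were 5964 and 2569 with array medians equal, 3942 and 2801 after quantile normalization, 50 and 4190 with hybridization controls equal, 31 and 9883 with poly-A controls equal, 750 and 3668 with no moderation, and 1017 and 2788 of 6574 genes above the median.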
